A study of Homo sapiens with 20 samples.

Results

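The SMARCB1 locus was examined through its H3K27ac peaks in G401 cells, an established rhabdoid tumour line of human origin whose labels give both copies of SMARCB1 as lost. The locus was taken as all peaks that overlapped chromosome 22 from 23.7 to 24.6 Mb (hg19), with SMARCB1 itself at chr22:24129150-24176705, an interval of 47.6 kb on the plus strand. The rule used positions only and no measured value. Peaks of the libraries merged into 36 regions in this window, of 167933 regions in all. The window held 31 of 98251 peaks of GFP replicate 1, 36 of 79555 of GFP replicate 2, 39 of 145533 of SMARCB1 replicate 1 and 49 of 135472 of SMARCB1 replicate 2.

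All groups were G401 cells of the genotype SMARCB1(-/-), and doxycycline was used to induce GFP in the controls and SMARCB1 in the other group. Chromatin was cut enzymatically, with MNase named in the design text. The 2 GFP-induced and 2 SMARCB1-induced H3K27ac libraries were compared, and the H3K4me3, H3K4me1, SMARCA4 and input samples were not analysed here. The duration of induction, the construct and the number of clones are not given in the sources used here. Nothing in the labels says that replicates came from separate cultures, so a p-value measures only the spread between these libraries, which may be technical. The smallest p of an exact permutation test (two-sided) between 2 and 2 libraries is 0.333, and over the 10 measures tested the lowest Benjamini-Hochberg adjusted p was 0.556. The size of each difference and the overlap of the groups are therefore given throughout.

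SMARCB1, also called SNF5 or BAF47, is a core subunit of the SWI/SNF complexes, which use ATP to move nucleosomes and open chromatin. Loss of both copies of the gene defines most rhabdoid tumours. H3K27ac, the acetylation of lysine 27 of histone H3, marks active promoters and enhancers, and a gene in use usually carries it around its start site. An expression construct commonly holds the coding sequence of a gene without its introns, and reads from such a construct align to the exons of the native gene.

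In the RefSeq gene order, MMP11, a matrix metalloproteinase, is the protein-coding gene before SMARCB1, with CHCHD10 and C22orf15 farther out. DERL3, a protein of the degradation pathway of the endoplasmic reticulum, follows SMARCB1, and SLC2A11, a sugar transporter, and MIF, a cytokine, come next. The 250 bases before the SMARCB1 start are shown as the sequence of the native promoter, beside the start site around which acetylation would be looked for. They were taken from RefSeq on GRCh38.p14 at chr22:23786716-23786965, plus strand, a build other than that of the peaks, and capitals mark each CG.
SMARCB1 promoter: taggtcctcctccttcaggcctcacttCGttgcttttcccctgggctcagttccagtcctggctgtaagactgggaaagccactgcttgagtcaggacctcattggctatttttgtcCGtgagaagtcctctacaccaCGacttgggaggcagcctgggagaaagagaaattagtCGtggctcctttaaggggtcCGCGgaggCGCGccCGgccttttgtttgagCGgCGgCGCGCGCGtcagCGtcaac
The sequence had 16 CG dinucleotides, 14 of them in the last 125 bases, against a median of 11 in the same 250 bases of 35116 promoters. At least 16 were found in 41.0% of these promoters, and at least 1 in 93.9%. CG reads the same on either strand. Its GC content was 58%, equal to the median promoter. The peak coordinates below are all hg19.

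No library had a peak in the 2 kb before the SMARCB1 start. On the gene interval, GFP replicates 1 and 2 had 0 and 0 peaks, and SMARCB1 replicates 1 and 2 had 8 and 7 peaks. The groups did not overlap, and the mean difference was 7.5 peaks (0 ± 0 with GFP and 7.5 ± 0.707 with SMARCB1, SD, n = 2; exact permutation test, two-sided, p = 0.333, adjusted p = 0.556). All 15 peaks had a -log10 q above 5, and the count was the same with equal numbers of peaks from every list.

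The peaks lay at 8 sites, numbered here in the direction of transcription. At site 1 only SMARCB1 replicate 1 had a peak, from 24129364 to 24129566, starting 214 bp after the gene start. Sites 2 to 8 had a peak in both SMARCB1 libraries. In replicate 1 these lay at 24133834-24134184, 24135630-24135997, 24143021-24143392, 24145386-24145693, 24158853-24159222, 24167301-24167702 and 24175644-24175985. In replicate 2 they lay at 24133818-24134186, 24135636-24135975, 24143016-24143377, 24145399-24145702, 24158871-24159213, 24167334-24167694 and 24175650-24175989. The last site ended before the gene did, and no peak passed the gene end at 24176705. The hg19 exon positions of SMARCB1 were not used here, and whether the sites lie on exons was not tested.

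The sites were thin marks on a long gene. Summits of neighbouring peaks were between 1807 and 13487 bp apart in replicate 1 and between 1827 and 13537 bp apart in replicate 2. Together the peaks covered 5.71% and 5.09% of the gene. The stretches between them, up to 13.2 kb long, were free of peaks in all 4 libraries.

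**Figure D1:**
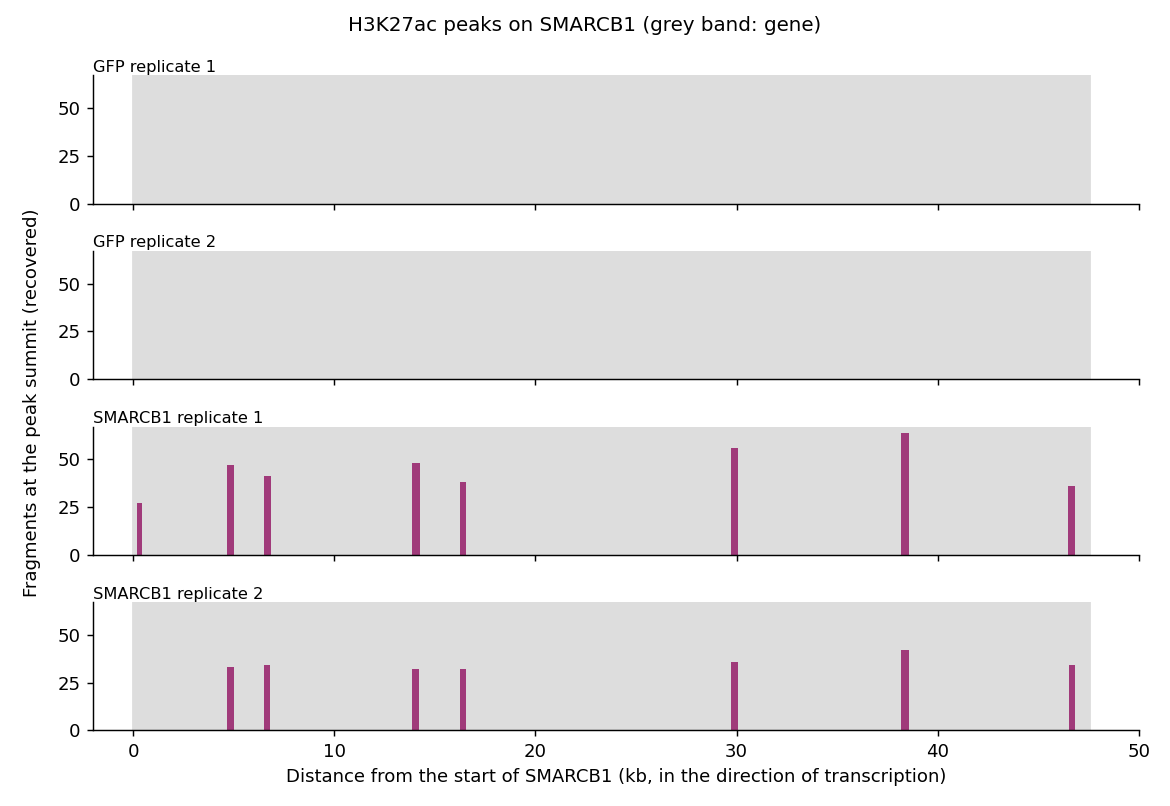
H3K27ac peaks on SMARCB1 by library. The x axis is the distance from the gene start in kb, the y axis the number of fragments at the summit recovered from the deposited peak values before any scaling, and each bar spans 1 peak. The GFP panels are empty, replicate 1 of SMARCB1 has 8 bars and replicate 2 has 7, at matching places.

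The peaks stood well above the background of their lists. A peak's fold enrichment is the height of its summit over the background expected by the authors' caller. In replicate 1 it was 4.73 at site 1 and, from site 2 to site 8, 6.87, 7.08, 8.25, 6.57, 9.60, 10.9 and 6.24. In replicate 2 it was 5.92, 7.16, 6.75, 6.75, 7.57, 8.80 and 7.16 from site 2 to site 8. Site 7 was the highest in both libraries, with site 6 next. The median over the sites was 6.97 and 7.16, against 3.72 and 3.68 over all peaks of each list, and 12.8% and 11.1% of all peaks were at least as high as these medians.

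The summit heights correspond to whole fragments. In replicate 1 there were 27 fragments at site 1 and 47, 41, 48, 38, 56, 64 and 36 at sites 2 to 8. In replicate 2 there were 33, 34, 32, 32, 36, 42 and 34 at sites 2 to 8. The genome-wide background was 4.79 fragments in SMARCB1 replicate 1 before its counts were scaled and 3.89 in SMARCB1 replicate 2, against 1.82 and 3.74 in the GFP replicates. At site 2 the expected background was above the genome-wide level in both SMARCB1 libraries, at 5 scaled fragments in replicate 1, where the genome-wide level was 4.09 after scaling, and 4.75 fragments in replicate 2. At the other sites it was at the genome-wide level. Within the window and 500 kb on each side, the weakest listed peak at the genome-wide background had 8 fragments in GFP replicate 1 and 12 in GFP replicate 2. In SMARCB1 replicates 1 and 2 such a peak had 15 and 12. Every site on SMARCB1 had more fragments than each of these numbers in the libraries that listed it. The counts were not adjusted for the different backgrounds, so whether the GFP lists would have held such sites was not tested. Depth, enrichment and the number of copies of a sequence all enter these heights and cannot be told apart.

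The peaks on SMARCB1 were narrow for their height. Their widths ran from 203 to 402 bp in replicate 1, with a median of 359.5 bp, and from 304 to 369 bp in replicate 2, with a median of 343 bp. The median width of all peaks was close to these, 402 and 379 bp, but most peaks in the lists were weaker. Among peaks within 10% of the same fold enrichment, the median width was 648 bp for site 1 of replicate 1 and 2017 bp for site 7. Depending on the site, between 0.0950% and 4.18% of such peaks in replicate 1 were as narrow as the peak on SMARCB1. In replicate 2 the median width at matched fold was between 945 and 1532 bp, and between 2.61% and 8.25% of peaks were as narrow. Peaks with at least the lowest fold of those on SMARCB1 numbered 38373 and 21770, and 7.84% and 3.67% of them were no wider than the widest on SMARCB1.

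**Figure D2:**
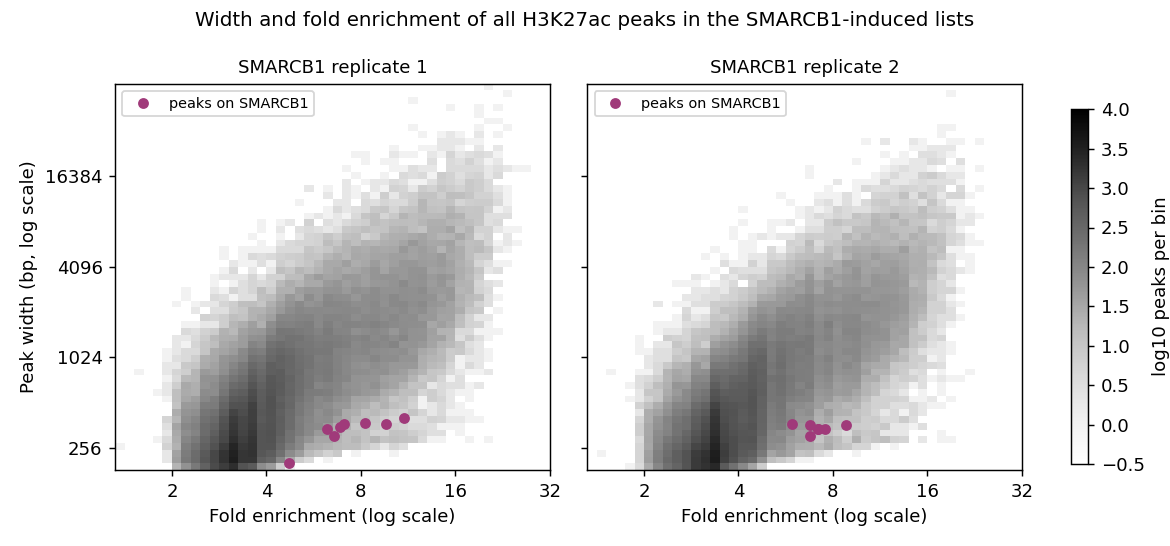
Peak width in bp against fold enrichment, both on log scales, for all peaks of the 2 SMARCB1-induced lists. Grey shows the number of peaks in each bin, and the coloured points are the 8 and 7 peaks on SMARCB1, which lie low in the cloud, toward its lower edge, at widths of 203 to 402 bp.

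The sites were also placed almost identically in the replicates. At the 7 sites present in both, starts differed by 5 to 33 bp and ends by 2 to 22 bp, with medians of 13 and 9 bp. Summits differed by 0 to 49 bp. Over 38604 regions where each SMARCB1 list had a single peak, the median difference was 79 bp for starts and 78 bp for ends. In 7.54% of those regions both differences were within 33 and 22 bp, the largest differences among the 7 sites themselves. The regions were not matched to the sites for fold or width. The summit lay between 42.8% and 57.7% of the way along each of the 14 peaks at sites 2 to 8, near the middle, and at 23.2% at site 1.

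Of the 8 merged regions on SMARCB1, 7 were present in both SMARCB1 libraries and neither GFP library, called gained here. Over all merged regions 17.5% were gained, and on chromosome 22 14.2%. None of the other 28 regions of the window was gained by this rule, nor for peaks of -log10 q 5 or more, with equal numbers of peaks or with peaks joined within 1 kb. With a reciprocal overlap of 50%, 10 of 17 gained regions lay off the gene. Off the gene there were 2 gained regions without GFP replicate 1, 1 without GFP replicate 2, 3 without SMARCB1 replicate 1 and 2 without SMARCB1 replicate 2. The gene held 7 or 8 gained regions in each of these settings. The shares of 17.5% and 14.2% hold for the main rule only, and no such share is given for the changed calls. Whether the counts off the gene differ from the genome under those calls was not tested. By the lower fold of the 2 lists, the 7 regions ranged from 5.92 to 8.80, against a median of 3.39 over all 29359 gained regions, of which 4.57% were at 5.92 or more.

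Without peaks on the gene, SMARCB1 lay within a long peak-free stretch. In the GFP libraries the stretch ran from 23881919 to 24655362 in replicate 1, 773 kb, and from 23881928 to 24666357 in replicate 2, 784 kb. It held the whole of SMARCB1 and was the sixth longest stretch without peaks on chromosome 22 in each GFP list, out of 3540 and 2548. Over the genome it was number 767 of 98227 and number 751 of 79531 by length. It was thus within the longest 0.781% and 0.944% of the stretches of these lists, though longer ones occurred elsewhere. In the SMARCB1 libraries the flanking peaks were 761.2 and 761.3 kb apart, and the peaks on the gene divided this span. The longest peak-free part that touched the gene was then 467.07 and 467.23 kb, from the last site to the next peak beyond the gene.

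The mean length of the longest peak-free stretch touching SMARCB1 was 779 ± 7.77 kb with GFP and 467 ± 0.113 kb with SMARCB1 (SD, n = 2). The groups did not overlap, and the difference was -312 kb (exact permutation test, two-sided, p = 0.333). Leaving aside the peaks on the gene, the difference was -17.7 kb (exact permutation test, two-sided, p = 0.333). That smaller difference did not keep the groups apart in stricter lists. It was -11.6 kb for peaks of -log10 q 5 or more and -6.14 kb with equal numbers of peaks, each with overlap (exact permutation test, two-sided, p = 1). A peak-free stretch can hold DNA without acetylation, sequence to which reads cannot be placed, or no DNA on either chromosome copy, and these cannot be told apart in peak lists.

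**Figure D3:**
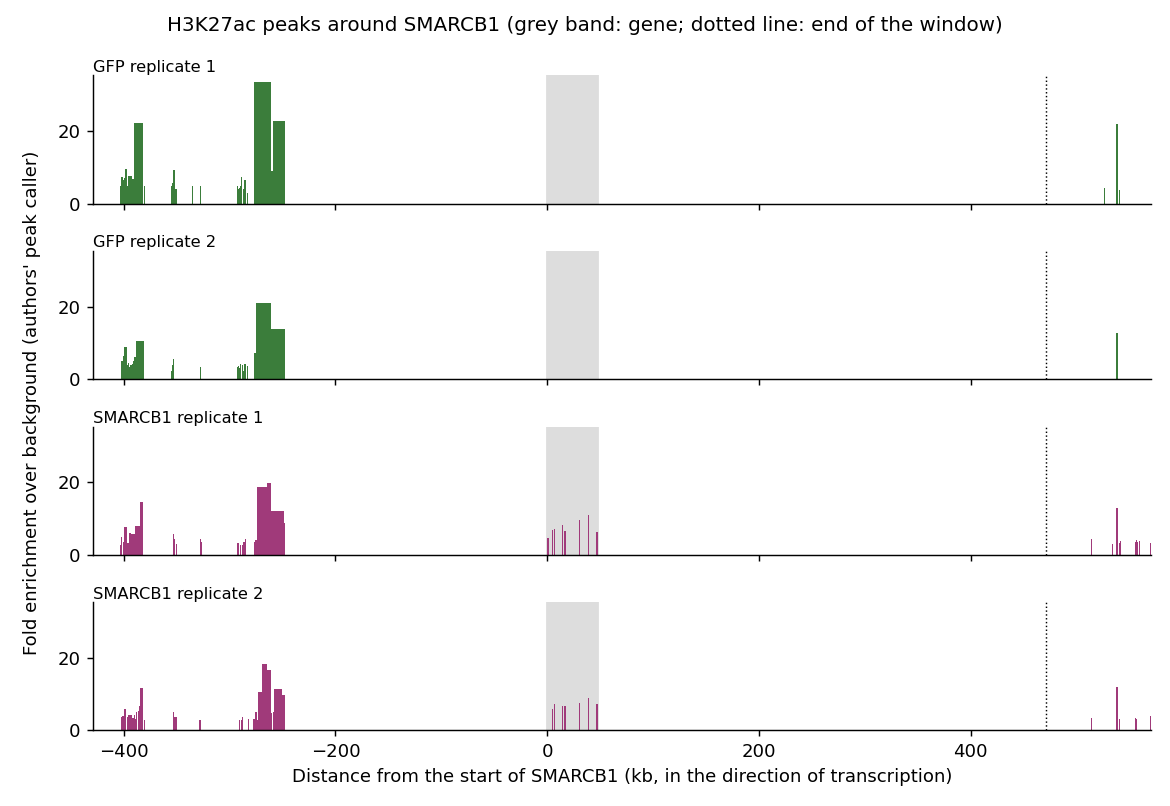
H3K27ac peaks around SMARCB1 in the 4 libraries. The x axis is the distance from the gene start in kb and the y axis the fold enrichment given by the authors' caller, with 1 bar per peak. Peaks fill the left end of the window in each library, the peak-free stretch of 761 to 784 kb follows, and it is broken at the gene in the SMARCB1 libraries only.

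On the side before the gene, the stretch began at almost the same base in every library. The last peak ended at 23881918 and 23881927 in the GFP replicates and at 23881898 and 23881899 in the SMARCB1 replicates, a range of 29 bp at a distance of 247 kb from the gene. These peaks were among the taller of their lists, with a fold enrichment of 22.7 and 13.7 in the GFP replicates and 8.76 and 9.62 in the SMARCB1 replicates. They had 63, 64, 51 and 46 fragments at the summit. In the GFP lists they were 11937 and 13415 bp wide, which 0.454% and 0.502% of peaks reached, and in the SMARCB1 lists 1358 and 3104 bp. The last peaks closed a merged region of 29.4 kb that was present in all libraries, from 23852500 to 23881927. This region held 3 and 3 peaks with GFP and 7 and 13 with SMARCB1, so the last peaks are unlike pieces of it. Its highest fold was 33.6 and 20.9 with GFP and 19.8 and 18.2 with SMARCB1.

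Ends that coincide this closely were uncommon but not singular. Both edges of 3695 stretches of at least 100 kb that the GFP lists left free were taken. The nearest peaks outside each stretch in the 4 libraries had edges within a median range of 743.5 bp, and 153 of 7390 edges (2.07%) were within 29 bp. Peaks of the SMARCB1 lists inside such a stretch were passed over, which can make a range smaller. On the far side of SMARCB1 the range by this rule was 10995 bp, without the SMARCB1 peaks that began at 24643056 and 24643220. Among 3066 edges of regions at least 10 kb wide that had a peak in every library, the median range was 405 bp and 3.85% were within 29 bp. This comparison was chosen after the peak ends had been seen and is given as a description.

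**Figure D4:**
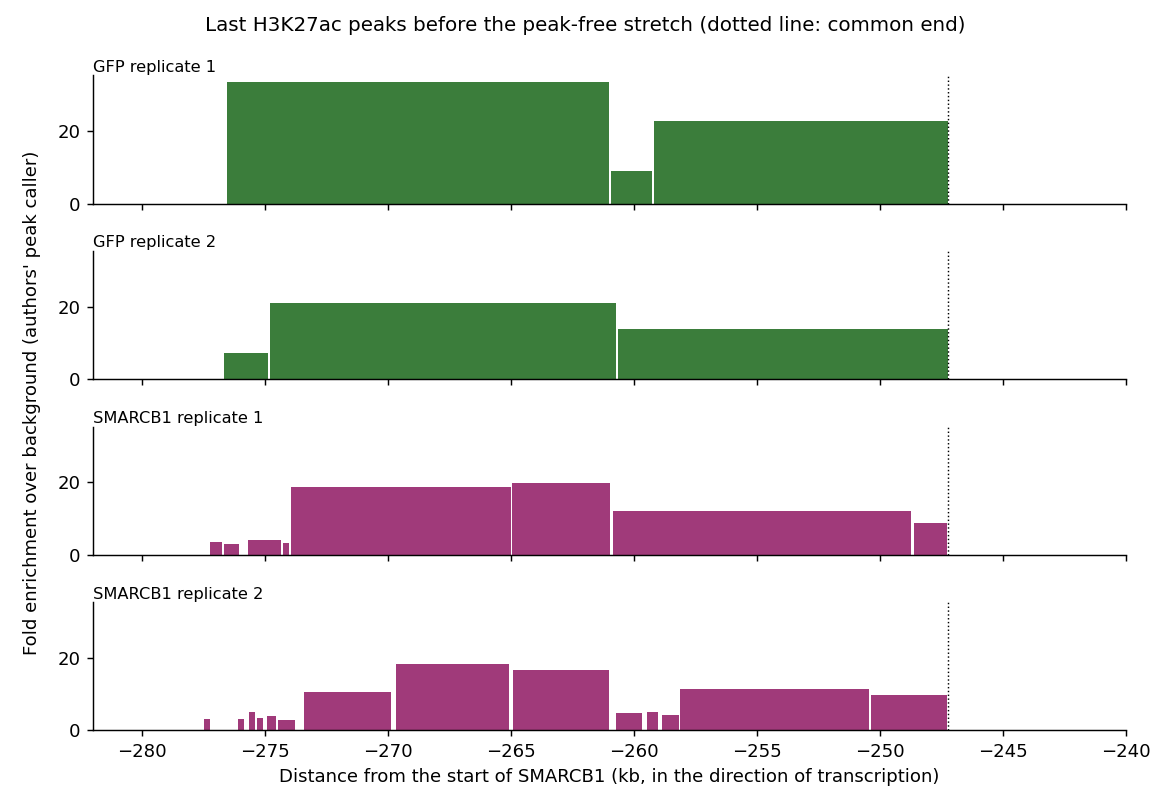
The last peaks before the peak-free stretch, by library. The x axis is the distance from the SMARCB1 start in kb, the y axis the fold enrichment given by the authors' caller, each bar spans 1 peak, and the dotted line marks the last of the 4 peak ends. All 4 libraries stop at that line, within 29 bp, and nothing is drawn to the right of it.

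On the far side the edge was less even. With GFP, the next peak after the gene began at 24655363 and 24666358. With SMARCB1 it began at 24643056 and 24643220. The distance from the gene was 484 ± 7.77 kb with GFP and 466 ± 0.116 kb with SMARCB1 (SD, n = 2; exact permutation test, two-sided, p = 0.333). The groups were not apart in stricter lists. For peaks of -log10 q 5 or more the distances were 489.63 and 489.65 kb with GFP and 466.35 and 489.63 kb with SMARCB1, so the groups met (difference -11.7 kb, exact two-sided permutation p = 0.667). With equal numbers of peaks the groups overlapped, at 478.66 and 489.65 kb against 466.35 and 489.63 kb (difference -6.16 kb, exact two-sided permutation p = 0.667). The peaks had 11 and 28 fragments in the GFP replicates and 24 and 15 in the SMARCB1 replicates, with a fold enrichment of 4.25, 6.12, 4.22 and 3.27. The peak of GFP replicate 2 was the tallest for its list, where 21.7% of peaks were as high, against 63.7% for the peak of GFP replicate 1 and 34.9% and 75.8% for those of the SMARCB1 replicates. The first regions with a peak in every library lay at 24666338-24666636 and 24666755-24668742, of which the latter had a fold enrichment of 21.96 and 12.7 in the GFP replicates and 12.8 and 11.9 in the SMARCB1 replicates. Both lie outside the window, and between the gene and the end of the window no library had a peak.

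All other peaks of the window lay before the stretch. There were 31 and 36 with GFP and 31 and 42 with SMARCB1, so the groups overlapped (33.5 ± 3.54 and 36.5 ± 7.78, SD, n = 2; exact two-sided permutation p = 1). The counts with the gene included were 33.5 ± 3.54 and 44 ± 7.07, a difference of 10.5 without overlap (exact two-sided permutation p = 0.333). That difference turned to -2 with equal numbers of peaks from every list, and was 5.5 without SMARCB1 replicate 2. The covered length was 58.0 and 55.5 kb with GFP and 55.7 and 48.8 kb with SMARCB1, a difference of -4.48 kb with overlap (exact two-sided permutation p = 0.667), which was -1.02 kb without SMARCB1 replicate 2 and -7.93 kb without SMARCB1 replicate 1. As a share of each list, the window held 0.0316% and 0.0453% of peaks with GFP and 0.0268% and 0.0362% with SMARCB1 (exact two-sided permutation p = 0.667). That difference of -0.00692 points was -6.79e-05 without GFP replicate 2, -0.0138 without GFP replicate 1, -0.0116 without SMARCB1 replicate 2 and -0.00223 without SMARCB1 replicate 1.

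The 28 regions before the stretch were mostly shared by all lists or found in a single list, as were merged regions in general. A peak in every library was present in 6, a single library had 11, and 3 were lost, meaning that the GFP lists both had a peak where the SMARCB1 lists had none. Over all 167933 merged regions, 27997 had a peak in every library, 83826 had one in a single library and 3.94% were lost. The lost regions lay at 23773633-23774133, 23774674-23775412 and 23835665-23836077. Their lowest fold was 2.30, 3.80 and 3.38, and joining peaks within 1 kb left none of them lost. Lost regions numbered 7 without GFP replicate 1, 6 without GFP replicate 2 and 5 without SMARCB1 replicate 1. Leaving out a library loosens the call by construction. The share of 3.94% does not apply to these counts, and no share over all merged regions is given for them. The 3 regions of all libraries with the highest lowest fold were that of 29.4 kb beside the stretch (18.2), one of 19.9 kb at 23728275-23748156 (10.6) and one of 1471 bp at 23775743-23777213 (4.91).

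The peaks on SMARCB1 also entered the authors' deposited table of stitched enhancer regions. ROSE, which produced it, joins neighbouring peaks away from start sites. In the authors' deposited table named SB11, sites 2 to 5 were joined into a region at 24133834-24145693 from 4 peaks and sites 6 to 8 into a region at 24158853-24175985 from 3 peaks. In the authors' deposited table named SB12, the same joins gave 24133818-24145702 and 24158871-24175989. Neither table marked them as super-enhancers, and neither of the authors' deposited tables named GFP1 and GFP2 had a region on the gene. The region edges of each table matched peak edges of 1 library at 100%, and at 0.0194% or less in the others. The 4 joined regions held 1403, 1117, 1379 and 1047 bp of peaks by the authors' deposited tables, within lengths of 11860, 17133, 11885 and 17119 bp.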

How the data were processed

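H3K27ac peak lists of 4 libraries and 4 tables of stitched regions were used. The 20 samples fall into 10 groups of 2, by the induced gene and the antibody target in their titles. Names of the deposited files give MACS2, hg19 and a filter for each library's list. The rule of the filter, the caller's version and its control are not given in the sources used here. The submitters' processing notes also name BWA 0.7.12-r1039, SAMtools and bedtools. Each deposited peak carries the authors' fold enrichment, a ratio, and their -log10 p and -log10 q. All 3 describe peaks within a list. Tables of stitched regions came from ROSE, per the file headers, and their 8 columns of signal per read file were not used.

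Coordinates were written 1-based. Peaks that shared at least 1 bp were merged over the 4 lists. Summit fragments were solved as whole numbers, within 0.05 fragments, from the deposited fold (summit and background each raised by 1) and the Poisson tail behind the deposited -log10 p. All peaks of the window and 500 kb on each side were recovered, 100% in each list, meaning only that a whole number could be fitted. In the list of SMARCB1 replicate 1, whole fragments were found only after a scale of 0.855. Read totals were not given, so the recovered background stands for depth, and no interval on counts was computed. In simulated lists of 977 and 929 peaks, made like unscaled and scaled lists, 99.9% and 100% of fragment numbers were recovered. These lists had genome-wide backgrounds of 3.7 and 4.1 and held only taller peaks. Peaks as weak as the listed ones of 8, 12 and 15 fragments, and the background of 1.82 in GFP replicate 1, were not simulated.

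Tests between group means were exact permutation tests, two-sided. Named were SMARCB1, 3 protein-coding neighbours per side in RefSeq order (GRCh38.p14, names only), each peak on the gene, the peaks next to the stretch, gained and lost regions of the window, and the 3 highest regions per side with a peak in every library. After the stretch, regions within 100 kb are in the closing part. The locus, the lists and the tests were chosen with earlier results of these data known. The comparisons of width, of replicate placement, of peak ends and of series of sites (including its limit of 60 kb), and the counts without peaks on SMARCB1, were chosen after the values had been seen. Alternatives tried were peaks of -log10 q 5 or more, equal numbers of peaks, each library left out, the replicate block, a reciprocal overlap of 50%, joining within 1 kb, a window wider by 500 kb on each side and a gene interval wider by 10 kb. Exact intervals recurred in at most 36 peaks between any 2 lists, so no list was a copy of another. The software was scipy 1.17.1, numpy 2.4.6, pandas 2.3.3 and matplotlib 3.10.9 under Python 3.11.15.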

Additional observations from a re-analysis of the deposited data

How the results depend on the processing

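The difference of 7.5 peaks on SMARCB1 was the same for peaks of -log10 q 5 or more, with equal numbers of peaks and with 10 kb added on each side of the gene, and from 7 to 8 without 1 library. The difference in peak number over the window reversed to -2 with equal numbers of peaks. By construction this shortened every list except that of GFP replicate 2, to 79555 peaks, and the SMARCB1 lists most. The difference was 3 for peaks of -log10 q 5 or more and 142 in the window widened by 500 kb on each side. Gained regions of the window were 7 for peaks of -log10 q 5 or more, with equal numbers and with peaks joined within 1 kb. They were 17 with a reciprocal overlap of 50%, where pieces of split peaks count by construction, 67 in the widened window, 0 without peaks on SMARCB1, and from 8 to 10 without 1 library. Lost regions went from 3 to 6 with equal numbers of peaks, 5 with the reciprocal overlap, 0 with joined peaks, 10 in the widened window, and from 4 to 7 without 1 library. The cause of these changes in lost regions was not tested. Shares of gained and lost regions over the genome are given for the main rule only, so counts under changed calls have no background beside them.

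With the replicate block each mean difference is unchanged by construction, at 10.5 peaks in the window, 7.5 peaks on SMARCB1, -312 kb of peak-free stretch and -4.48 kb of covered length. The pairs differed by 8 and 7 peaks on SMARCB1, where flipping the signs of 2 pairs exactly gave p = 0.5, the smallest it allows. No label ties a replicate number to a shared batch. The distance from the gene to the peak before it differed by 0.024 kb, with 247.232 and 247.223 kb for GFP and 247.252 and 247.251 kb for SMARCB1, so the groups did not overlap. The difference in distance to the peak after it went from -17.7 kb to -11.7 kb for peaks of -log10 q 5 or more and -6.16 kb with equal numbers of peaks, where the groups met or overlapped. Only peak lists were used, so signal below the caller's threshold was not measured.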

Other observations

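Beyond the peak-free stretch, the first 100 kb held 29 merged regions. Of these, 7 were gained, 0 were lost and 2 had a peak in every library. The gained regions there were weak, with a fold enrichment from 2.88 to 4.39 in SMARCB1 replicate 1 and from 2.96 to 3.89 in SMARCB1 replicate 2, below every site from 2 to 8 on SMARCB1. In the window widened by 500 kb on each side, 67 of 308 regions (21.8%) were gained, against 17.5% over all merged regions, and 10 (3.25%) were lost.

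The 5 longest stretches of chromosome 22 that all 4 lists left free of peaks were 2773, 1401, 1175, 1122 and 745 kb long, at 32879944-35653030, 47570611-48971196, 27080275-28255586, 16395256-17516956 and 26108975-26854021. The stretch after SMARCB1, at 24175990-24643055, was number 8 with 467 kb, and that before it, at 23881928-24129363, was number 17 with 247 kb.

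A series of 7 consecutive gained regions within 60 kb, as on SMARCB1, occurred 214 more times in the genome, with overlapping series counted each, in 108 stretches including that of SMARCB1. None of the 214 had a lower-list fold of at least 5.92 at every region, the highest being 4.50 and the median 2.87. None had only peaks of at most 402 bp, the smallest widest peak being 531 bp and the median 1898.5 bp. The median fold within a series reached 9.62 elsewhere, above the 6.75 on SMARCB1. This search was set up from the values on SMARCB1, so it describes how often the pattern recurs and tests nothing. It was also changed once after its result had been seen: at first it took whole stretches of at least 7 consecutive gained regions with no limit on their length, and the limit of 60 kb was then added. Without the limit, the stretch of SMARCB1 ran on to the gained region beyond the peak-free span, with 8 regions over 509.75 kb, a lowest fold of 3.27 and a widest peak of 512 bp. Of the other 113 such stretches, 14 had a lowest fold at least as high and 0 had a widest peak as narrow. In both searches the cuts were the lowest fold and the widest peak of the SMARCB1 series or stretch itself. Without the limit, the other stretches held 7 or more regions and were not matched for number. By construction, an added region only lowers the lowest fold or widens the widest peak, or leaves them unchanged. The counts are given as a description, and a difference in fold or width from other series was not tested.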
